A study of Mus musculus with 15 samples.

Results

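The genes described here are those of fatty acid and triglyceride synthesis, followed in mouse primary hepatocytes that received an adenovirus for GFP or for GFP with 1 of the 4 isoforms of the bile acid receptor FXR. They were taken from a list of 42 genes, and a gene was used where a probe set annotated to it alone was measured, with the brightest such probe set over all arrays kept. This gave 39 genes of 18820 measured. Agpat1, Acsl3 and Acsm3 share their probe set annotation with another gene and were not analysed here. By role, 10 belong to lipogenesis and 2 make or oxidise glycerol 3-phosphate. A further 18 acylate glycerol 3-phosphate, lysophospholipids, monoacylglycerol or diacylglycerol, or remove the phosphate from phosphatidate. The rest are 3 acyl-CoA synthetases and 6 genes of fatty acid uptake and binding.

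The hepatocytes came from male C57BL/6J mice, and each group had 3 arrays. GFP was the control, and FXRα1, FXRα2, FXRα3 and FXRα4 are the human receptor isoforms, each on a virus that also made GFP from a CMV promoter of its own. All groups were kept in medium with dexamethasone and insulin during transduction, then in medium without either, and RNA was taken at 36 h. FXRα2 and FXRα4 lack a short insert beside the DNA-binding domain that FXRα1 and FXRα3 have, and FXRα3 and FXRα4 have the longer N-terminus. No FXR ligand is named in the labels, the ages of the mice are not given, and the receptors were overexpressed next to the hepatocytes' own FXR.

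In lipogenesis, ATP citrate lyase and acetyl-CoA synthetase supply acetyl-CoA, acetyl-CoA carboxylase turns it into malonyl-CoA, and fatty acid synthase builds palmitate from both, with NADPH partly from malic enzyme. In the glycerol 3-phosphate route, acyl-CoAs are added to glycerol 3-phosphate by GPAT and AGPAT enzymes, lipins remove the phosphate to give diacylglycerol, and DGAT enzymes add the last acyl chain. In liver, the transcription factors SREBP-1c, ChREBP and LXR drive many of the lipogenic genes, and FXR is known as a brake on hepatic lipogenesis through the small heterodimer partner SHP (gene Nr0b2).

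The promoters of the 5 members with a promoter at hand in which a change against GFP was largest are shown, as the 250 bases before the most upstream annotated start in RefSeq (GRCm38.p6). Promoters of 33 of the 39 members were used, and those of Gpat4, Agpat5, Dgat1, Dgat2, Mogat2 and Gpd1 were not used here. Gpam (mitochondrial GPAT, chr19:55127239-55127488, minus strand) and Mboat1 (a lysophospholipid acyltransferase, chr13:30136240-30136489, plus strand) fell with every isoform. Slc27a1 (a fatty acid transport protein, chr8:71568621-71568870, plus strand) rose with every isoform, while Lpin1 (chr12:16610967-16611216, minus strand) fell and Lpin3 (chr2:160880420-160880669, plus strand) rose with 3 of the 4. Capitals mark each match to the motifs searched.
Gpam: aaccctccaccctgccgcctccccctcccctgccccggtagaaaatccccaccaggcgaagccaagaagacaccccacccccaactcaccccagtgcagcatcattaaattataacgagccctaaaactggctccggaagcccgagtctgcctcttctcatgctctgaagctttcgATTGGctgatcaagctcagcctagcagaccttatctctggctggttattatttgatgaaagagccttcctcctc
Mboat1: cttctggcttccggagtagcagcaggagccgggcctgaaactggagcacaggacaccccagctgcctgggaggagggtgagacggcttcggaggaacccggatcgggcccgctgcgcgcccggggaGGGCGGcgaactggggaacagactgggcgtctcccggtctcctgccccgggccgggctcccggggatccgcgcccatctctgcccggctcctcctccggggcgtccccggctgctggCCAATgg
Slc27a1: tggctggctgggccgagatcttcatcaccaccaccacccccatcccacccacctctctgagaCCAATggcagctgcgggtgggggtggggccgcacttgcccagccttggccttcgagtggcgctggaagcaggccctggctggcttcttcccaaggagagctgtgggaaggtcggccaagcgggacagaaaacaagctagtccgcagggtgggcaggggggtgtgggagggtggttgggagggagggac
Lpin1: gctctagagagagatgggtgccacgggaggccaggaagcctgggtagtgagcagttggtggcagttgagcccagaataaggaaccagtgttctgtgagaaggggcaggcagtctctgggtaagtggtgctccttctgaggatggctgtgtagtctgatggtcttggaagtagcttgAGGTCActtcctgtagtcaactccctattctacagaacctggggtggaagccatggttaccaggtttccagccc
Lpin3: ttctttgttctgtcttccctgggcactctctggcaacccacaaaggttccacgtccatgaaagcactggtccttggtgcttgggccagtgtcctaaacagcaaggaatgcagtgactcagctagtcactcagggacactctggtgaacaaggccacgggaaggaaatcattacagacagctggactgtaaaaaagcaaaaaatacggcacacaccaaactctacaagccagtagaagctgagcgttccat

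The motifs, read on both strands, were the FXR element AGGTCA and TGACCT separated by 1 base (IR-1), the single hexamer AGGTCA, the sterol element TCACNCCAC, the E box CACGTG, the GC box GGGCGG and CCAAT. The Gpam window held CCAAT on the other strand, as ATTGG starting 74 bases before the start, and the Slc27a1 window held CCAAT 188 bases before it. The Mboat1 window held GGGCGG at 124 and CCAAT at 7 bases, and the Lpin1 window AGGTCA at 74 bases. The Lpin3 window held none of these letters. Over all 33 member windows, the exact IR-1 was in 0 (0.0074% of all 27025 promoters) and the IR-1 with 1 mismatch also in 0 (0.0814%), the hexamer, which IR-1 contains, in 6 or 18.2% (13.8% of all). The sterol element was in 0 (1.03%), the E box in 1 or 3.03%, that of Lpin2 (6.04%), the GC box in 14 or 42.4% (33.0%), and CCAAT in 17 or 51.5% (34.5%). A match is only a match of letters, and its absence says nothing of binding.

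Values are the deposited log2 levels per array, changes are differences of log2 group means with the standard error of the limma fit, and a gene is said to have risen, fallen or changed where its Benjamini-Hochberg adjusted p over all 18820 genes was under 0.05. Medians of all probe sets lay between 4.92 and 5.01 on the 15 arrays, and arrays of a group correlated with r from 0.997 to 0.999 across genes, which do not count as independent replicates. Precision is limited by the 3 arrays per group, and the labels do not say whether replicates were separate animals or cultures, so a p measures only the spread between these arrays, which may be technical. By their mean over all 15 arrays, all 10 measured hepatocyte markers lay above the median gene (5.72), while within the GFP group Asgr1 (5.64) did not. By the same mean none of the measured markers of Kupffer cells (9), stellate cells (10), adipocytes (4) or lymphocytes and neutrophils (6) did, and 1 of 8 endothelial markers (Cdh5) did. Within the GFP group the stellate marker Acta2 (5.84) and the endothelial Oit3 (5.96) did, and within FXRα3 Acta2 (5.82). The summed level of 5 cholangiocyte markers was 9.76 to 9.91 (log2) with GFP and higher in the isoform groups, from 10.5 with FXRα2 to 11.4 with FXRα3. Its members differed: Krt19 was 9.37 with GFP and 10.70, 7.55, 11.13 and 8.44 for FXRα1 to FXRα4, Epcam was 5.02 and then 5.70, 9.97, 5.76 and 9.70, Sox9 was 7.58 with GFP and between 8.03 and 8.65 with the isoforms, and Krt7 (4.57 to 4.78) and Cftr (2.99 to 3.05) were low throughout. The part of these in the results was not tested. Fewer cells of a type and less RNA per cell cannot be told apart in these bulk samples.

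Against GFP, the synthesis genes moved in different directions within each isoform group, and most changes were under 1.5-fold. With FXRα1, 7 rose and 5 fell of 39, beside 8.42% and 4% of all genes, and the members' median log2 change was 0.080 (0.0035 over all genes). With FXRα2, 13 rose and 6 fell (17.5% and 16.7% of all genes), with a median of 0.048 (−0.048). With FXRα3, 6 rose and 8 fell (7.45% and 6.62%), with a median of −0.0020 (−0.0026). With FXRα4, 9 rose and 15 fell (18% and 15.7%), with a median of −0.10 (−0.027). All 4 comparisons share the GFP arrays. Gpam and Mboat1 fell and Acsl5 and Slc27a1 rose with all 4 isoforms. In different isoform groups 5 members changed in opposite directions (Fasn, Acacb, Agpat2, Gpd1 and Lpcat3), and 10 changed with none. How many of all genes had each of these patterns was not counted.

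The split between rises and falls depended on the scaling of the arrays. Centring each array on the median of its genes, chosen after the data were seen, moved the median change of all genes by −0.10, −0.22, −0.04 and −0.21 for FXRα1 to FXRα4. The members' split then became 2 risen and 9 fallen, 6 and 19, 4 and 9, and 2 and 27 in that order. Their median change was then −0.024, −0.17, −0.041 and −0.31, beside −0.10, −0.27, −0.041 and −0.24 over all genes. With FXRα1 the split was 4 and 5 after centring on the median of all probe sets and 3 and 6 after centring on the 75th percentile, and with FXRα2 it was 11 and 8 after the former. The shares of all genes called under each scaling were not counted, here or between isoforms, so these splits cannot be set against them. Without GFP replicate 2, FXRα1 changed 7 members in place of 12. Changes that remained called under every alternative tried except a fold minimum numbered 5 of 12, 10 of 19, 10 of 14 and 11 of 24 with FXRα1 to FXRα4. Among them were those of Gpam, Mboat1 and Slc27a1 with every isoform. Of values that did not pass, 6 were called in 5 or more alternatives, those of Srebf1 and Mlycd with FXRα4, Gpat4 with FXRα3, Gpat3 with FXRα2, and Slc27a4 and Gpd2 with FXRα1.

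**Figure D1:**
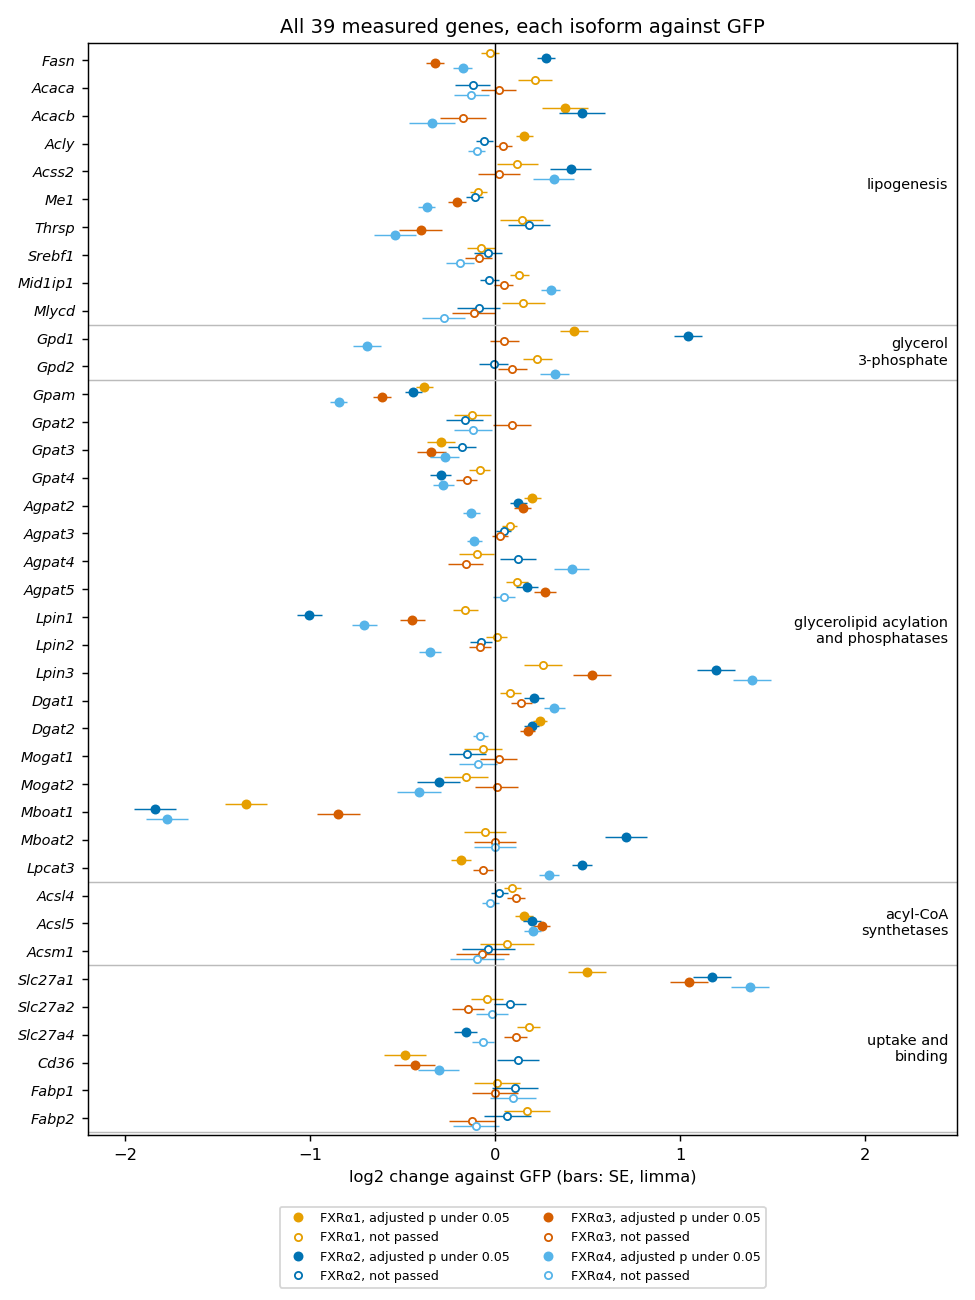
Log2 change against GFP of each of the 39 measured synthesis genes (rows, by role) with FXRα1, FXRα2, FXRα3 and FXRα4 (colours), with standard errors of the limma fit and filled points for an adjusted p under 0.05. Mboat1 and Gpam lie left of 0 with every isoform, Slc27a1 lies right of 0, and Gpd1 runs from −0.69 with FXRα4 to 1.04 with FXRα2.

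Of the 10 lipogenesis genes, 2 rose and 0 fell with FXRα1, 3 rose and 0 fell with FXRα2, 0 rose and 3 fell with FXRα3, and 2 rose and 4 fell with FXRα4. Over all genes the shares that rose and fell were 8.42% and 4%, 17.5% and 16.7%, 7.45% and 6.62%, and 18% and 15.7%. The lipogenesis genes' median log2 change was 0.14, −0.033, −0.10 and −0.18 in that order, beside 0.0035, −0.048, −0.0026 and −0.027 over all genes. No lipogenesis gene changed by 1.5-fold or more with any isoform.

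Fasn encodes fatty acid synthase, the multidomain enzyme that makes palmitate. Its level was 9.99, 9.93 and 9.97 with GFP, 9.97, 9.86 and 9.99 with FXRα1, 10.21, 10.20 and 10.32 with FXRα2, 9.66, 9.62 and 9.64 with FXRα3, and 9.86, 9.74 and 9.76 with FXRα4. The 3 FXRα2 arrays were the highest of the 15, the FXRα3 and FXRα4 arrays all lay below GFP, and FXRα1 overlapped GFP. Against GFP, Fasn rose with FXRα2 by 0.28 ± 0.049 (adjusted p = 9.49e-05), fell with FXRα3 (−0.33 ± 0.049, adjusted p = 5.32e-05) and fell with FXRα4 (−0.17 ± 0.049, adjusted p = 0.00742), and the value with FXRα1 was −0.026 ± 0.049. The rise with FXRα2 ended after gene median centring (0.056), while the falls with FXRα3 and FXRα4 were called under every alternative except the fold minimum.

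Acaca and Acacb encode the 2 acetyl-CoA carboxylases, the first making malonyl-CoA for synthesis and the second, on the mitochondrial surface, malonyl-CoA that restrains fatty acid oxidation. The Acacb level was 5.86, 5.71 and 5.78 with GFP, 6.21, 5.88 and 6.39 with FXRα1, 6.22, 6.16 and 6.36 with FXRα2, 5.67, 5.40 and 5.76 with FXRα3, and 5.57, 5.33 and 5.42 with FXRα4. All FXRα1 and FXRα2 arrays lay above the GFP arrays, and all FXRα4 arrays below them, with FXRα3 overlapping GFP. Acacb rose with FXRα1 by 0.38 ± 0.12 (adjusted p = 0.0482) and with FXRα2 by 0.47 ± 0.12 (adjusted p = 0.00456), and fell with FXRα4 (−0.34 ± 0.12, adjusted p = 0.0385). The FXRα1 call ended without FXRα1 replicate 1 or 3 or GFP replicate 1, 2 or 3 (0.27 to 0.42) and in 8 other settings (0.28 to 0.38), among them every rescaling tried. The FXRα4 call ended without FXRα4 replicate 2 or 3 or GFP replicate 1, 2 or 3 (−0.38 to −0.28) and with 16 added to the linear values (−0.26), and the FXRα2 call under no alternative but the fold minimum. Acaca, with 8.66 ± 0.11 (SD, n = 3) with GFP, changed with none, its values running from −0.13 ± 0.093 with FXRα4 to 0.22 ± 0.093 with FXRα1. Its dimmer probe set also passed with none, with values from −0.21 (FXRα2) to 0.21 (FXRα1).

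Thrsp (Spot 14) and its relative Mid1ip1 encode small proteins tied to lipogenesis, Mid1ip1 through polymerisation of acetyl-CoA carboxylase. The Thrsp level was 7.36, 7.32 and 7.13 with GFP, 7.58, 7.06 and 7.59 with FXRα1, 7.59, 7.32 and 7.45 with FXRα2, 6.88, 6.84 and 6.89 with FXRα3, and 6.74, 6.64 and 6.82 with FXRα4. Every FXRα3 and FXRα4 array lay below every GFP array, while FXRα1 and FXRα2 overlapped GFP and FXRα1 spread from 7.06 to 7.59. Thrsp fell with FXRα3 (−0.40 ± 0.11, adjusted p = 0.0184) and FXRα4 (−0.54 ± 0.11, adjusted p = 0.000615), and had 0.14 ± 0.11 with FXRα1 and 0.18 ± 0.11 with FXRα2. The FXRα3 call ended without FXRα3 replicate 1 or 2 or GFP replicate 1 or 2 (−0.41 to −0.36). Mid1ip1 went another way, with 9.89, 9.79 and 9.88 with GFP, 9.95, 9.92 and 10.09 with FXRα1, 9.85, 9.80 and 9.82 with FXRα2, 9.90, 9.82 and 9.99 with FXRα3, and 10.15, 10.14 and 10.17 with FXRα4. Its FXRα4 arrays were the highest of the 15, and the rise passed the test only in that group, by 0.30 ± 0.052 (adjusted p = 6.9e-05), a call that ended after gene median centring (0.089).

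Me1 encodes cytosolic malic enzyme, a source of NADPH. Its level was 11.42, 11.30 and 11.24 with GFP, 11.15, 11.21 and 11.32 with FXRα1, 11.26, 11.17 and 11.20 with FXRα2, 11.13, 11.10 and 11.11 with FXRα3, and 10.96, 10.95 and 10.94 with FXRα4. The FXRα4 arrays were the lowest of the 15, and the FXRα3 arrays lay below all GFP arrays. Me1 fell with FXRα3 (−0.20 ± 0.046, adjusted p = 0.00331) and FXRα4 (−0.37 ± 0.046, adjusted p = 1.09e-06), and a dimmer probe set for it had −0.23 and −0.35.

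Acss2, the cytosolic acetyl-CoA synthetase, and Acly, ATP citrate lyase, supply acetyl-CoA. The Acss2 level was 6.84, 6.71 and 6.79 with GFP, 6.89, 6.62 and 7.19 with FXRα1, 7.22, 7.08 and 7.26 with FXRα2, 6.72, 6.81 and 6.86 with FXRα3, and 7.17, 6.92 and 7.19 with FXRα4. The FXRα2 and FXRα4 arrays lay above all GFP and FXRα3 arrays, and FXRα1 spread over both ranges. It rose with the isoforms without the insert, by 0.41 ± 0.11 with FXRα2 (adjusted p = 0.00598) and 0.32 ± 0.11 with FXRα4 (adjusted p = 0.032). The FXRα4 call ended without FXRα4 replicate 1 or 3 or GFP replicate 2 or 3 (0.27 to 0.32) and after median centring (0.27), and gene median centring left 0.19 with FXRα2 and 0.10 with FXRα4, neither called. Acly rose with FXRα1 by 0.16 ± 0.046 (adjusted p = 0.0249), a call that ended without FXRα1 replicate 1 or 3 or GFP replicate 1 or 2 (0.13 to 0.16), after any of the 3 centrings (0.053 to 0.15), without the mean-variance trend and with the groups of the contrast alone. It was within −0.10 ± 0.046 (FXRα4) and 0.044 ± 0.046 (FXRα3) elsewhere. Srebf1, the gene of SREBP-1, changed with none, from −0.19 ± 0.074 with FXRα4 (adjusted p = 0.0541) to −0.036 ± 0.074 with FXRα2. The FXRα4 fall was called in 10 alternatives (−0.40 to −0.19), among them all 4 rescalings, array weights and the groups of the contrast alone. Mlycd, malonyl-CoA decarboxylase, which removes malonyl-CoA, also changed with none, from −0.28 ± 0.12 with FXRα4 to 0.15 ± 0.12 with FXRα1. Its FXRα4 fall was called under all 4 rescalings, with the replicate block, and without FXRα4 replicate 3 or GFP replicate 2 (−0.49 to −0.28).

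**Figure D2:**
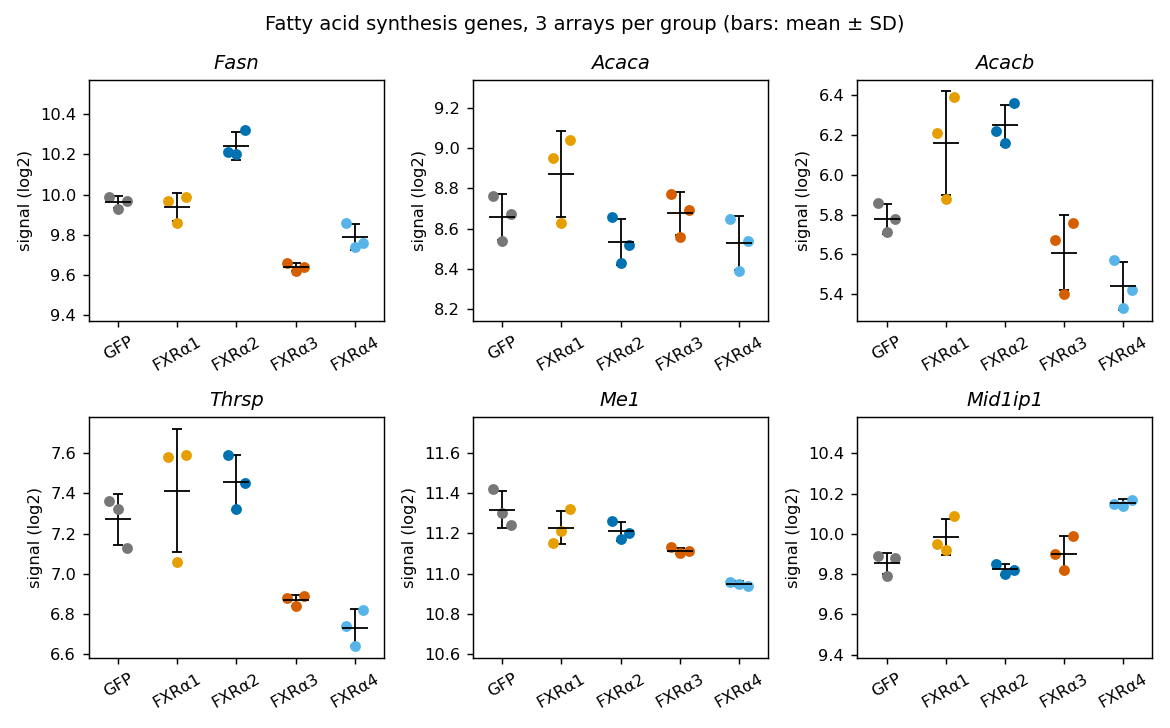
Deposited log2 level of Fasn, Acaca, Acacb, Thrsp, Me1 and Mid1ip1 (panels) on each of the 15 arrays by group (points), with group means (bars). The Fasn points of FXRα2 lie at 10.20 to 10.32, above every other group, and the Thrsp points of FXRα3 and FXRα4 lie between 6.64 and 6.89, below all others.

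Glycerol 3-phosphate, the backbone of triglyceride, comes from glycolysis through Gpd1, the cytosolic glycerol 3-phosphate dehydrogenase, while the mitochondrial Gpd2 oxidises it. The Gpd1 level was 9.02, 8.77 and 8.83 with GFP, 9.29, 9.16 and 9.45 with FXRα1, 9.97, 9.86 and 9.91 with FXRα2, 8.99, 8.83 and 8.96 with FXRα3, and 8.28, 8.18 and 8.07 with FXRα4. The 3 FXRα2 arrays were the highest and the 3 FXRα4 arrays the lowest of the 15, the FXRα1 arrays lay above GFP, and FXRα3 overlapped GFP. Gpd1 rose 2.06-fold with FXRα2 (1.04 ± 0.076, adjusted p = 2.58e-10) and 1.34-fold with FXRα1 (0.43 ± 0.076, adjusted p = 0.000372), and fell with FXRα4 (−0.69 ± 0.076, adjusted p = 1.62e-07). With FXRα3 it had 0.051 ± 0.076. Gpd2, at 9.08 ± 0.07 (log2, SD, n = 3) with GFP and 9.40 ± 0.07 with FXRα4, rose with FXRα4 by 0.32 ± 0.079 (adjusted p = 0.00219), which became 0.11 and lost its call after gene median centring. It had 0.23 ± 0.079, −0.0078 ± 0.079 and 0.094 ± 0.079 with FXRα1, FXRα2 and FXRα3, of which the first was called in 5 alternatives (0.23 to 0.34), among them without FXRα1 replicate 2 (0.34).

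Of the 18 genes of glycerolipid acylation and phosphatidate phosphatases, 2 rose and 4 fell with FXRα1, 7 and 5 with FXRα2, 4 and 4 with FXRα3, and 4 and 9 with FXRα4. The shares of all genes were 8.42% and 4%, 17.5% and 16.7%, 7.45% and 6.62%, and 18% and 15.7%. The group's median log2 change was −0.075, −0.014, 0.0039 and −0.12 in that order, beside 0.0035, −0.048, −0.0026 and −0.027 over all genes. The group included changes past 1.5-fold: Mboat1 with each isoform, Gpam with FXRα3 and FXRα4, Lpin1 with FXRα2 and FXRα4, Lpin3 with FXRα2 and FXRα4, and Mboat2 with FXRα2.

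The GPAT enzymes add the first acyl chain to glycerol 3-phosphate, and Gpam encodes the outer mitochondrial membrane form. Its level was 10.36, 10.44 and 10.38 with GFP, 10.01, 10.02 and 10.01 with FXRα1, 10.05, 9.93 and 9.87 with FXRα2, 9.81, 9.81 and 9.73 with FXRα3, and 9.54, 9.56 and 9.54 with FXRα4. All GFP arrays lay above all isoform arrays, and the FXRα4 arrays were the lowest. Gpam fell with FXRα1 (−0.38 ± 0.048, adjusted p = 4.24e-06), FXRα2 (−0.44 ± 0.048, adjusted p = 1.1e-07), FXRα3 (−0.61 ± 0.048, adjusted p = 4.89e-09) and FXRα4 (−0.85 ± 0.048, adjusted p = 4.93e-12). Gpat3 and Gpat4 act in the endoplasmic reticulum. Gpat3 fell with FXRα1 (−0.29 ± 0.078, adjusted p = 0.0136), FXRα3 (−0.34 ± 0.078, adjusted p = 0.00325) and FXRα4 (−0.27 ± 0.078, adjusted p = 0.0084), and its value with FXRα2 was −0.18 ± 0.078, called in 6 alternatives that include all 4 rescalings (−0.40 to −0.19). The FXRα1 call ended without FXRα1 replicate 2 or GFP replicate 2 or 3 (−0.26 to −0.23) and the FXRα4 call without GFP replicate 2 (−0.23). Gpat4 fell with FXRα2 (−0.29 ± 0.057, adjusted p = 0.000247) and FXRα4 (−0.28 ± 0.057, adjusted p = 0.000397), its values being −0.083 ± 0.057 with FXRα1 and −0.15 ± 0.057 with FXRα3, the latter called in 7 alternatives (−0.19 to −0.14). Gpat2, best known from testis, changed with none (from −0.16 ± 0.10 with FXRα2 to 0.091 ± 0.10 with FXRα3). Its mean over all arrays (4.29) lay below the median gene (5.72) and was not shown to be above background.

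AGPAT enzymes add the next acyl chain, giving phosphatidate. The Agpat2 level was 10.29, 10.36 and 10.29 with GFP, 10.46, 10.57 and 10.51 with FXRα1, 10.47, 10.46 and 10.39 with FXRα2, 10.48, 10.50 and 10.41 with FXRα3, and 10.11, 10.24 and 10.21 with FXRα4. The FXRα1, FXRα2 and FXRα3 arrays lay above the GFP arrays and the FXRα4 arrays below them. It rose with FXRα1 (0.20 ± 0.046, adjusted p = 0.004), FXRα2 (0.13 ± 0.046, adjusted p = 0.0381) and FXRα3 (0.15 ± 0.046, adjusted p = 0.0316), and fell with FXRα4 (−0.13 ± 0.046, adjusted p = 0.0369), all changes of under 1.2-fold. The FXRα2 call ended without FXRα2 replicate 1 or 2 or GFP replicate 1 or 3 (0.11 to 0.12), the FXRα3 call without FXRα3 replicate 1 or 2 or GFP replicate 1 or 3 (0.13 to 0.14) and the FXRα4 call without FXRα4 replicate 1 or 3 or GFP replicate 2 or 3 (−0.14 to −0.089), and each of the 4 calls ended under 2 or more rescalings. Gene median centring left 0.098 with FXRα1 and turned the FXRα2 value to −0.095. Agpat5 rose with FXRα2 (0.17 ± 0.060, adjusted p = 0.028) and FXRα3 (0.27 ± 0.060, adjusted p = 0.00261). The FXRα2 rise ended without FXRα2 replicate 2 or 3 or GFP replicate 2 or 3 (0.14 to 0.18) and after median centring (0.14), and turned to −0.048 after gene median centring. Agpat3 fell with FXRα4 (−0.11 ± 0.041, adjusted p = 0.0422), a call that ended without FXRα4 replicate 1 or 3 or GFP replicate 1 or 2 (−0.11 to −0.095), without the mean-variance trend, after 75th percentile centring and with every probe set tested. Agpat4 rose with FXRα4, where its arrays read 4.21, 4.38 and 4.48 against 3.88, 3.97 and 3.98 with GFP (0.42 ± 0.10, adjusted p = 0.00131), with 0.20 and no call after gene median centring. The GFP level is near the 25th percentile of gene means (3.83) and was not shown to be above background, so this difference, too, may not be the full size.

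The lipins, phosphatidate phosphatases that yield diacylglycerol, differed in direction. The Lpin1 level was 8.84, 8.99 and 9.04 with GFP, 8.86, 8.67 and 8.86 with FXRα1, 7.95, 7.89 and 8.02 with FXRα2, 8.42, 8.52 and 8.59 with FXRα3, and 8.26, 8.20 and 8.29 with FXRα4. The FXRα2 arrays were the lowest, followed by FXRα4 and then FXRα3, with no overlap between these 3 groups or with GFP, while FXRα1 overlapped GFP. Lpin1 fell with FXRα2 (−1.003 ± 0.068, adjusted p = 8.06e-11), FXRα4 (−0.71 ± 0.068, adjusted p = 2.45e-08) and FXRα3 (−0.45 ± 0.068, adjusted p = 6.01e-05), and had −0.16 ± 0.068 with FXRα1 (adjusted p = 0.156). The Lpin3 level was 6.20, 6.49 and 6.39 with GFP, 6.54, 6.53 and 6.78 with FXRα1, 7.46, 7.51 and 7.71 with FXRα2, 6.77, 6.90 and 6.99 with FXRα3, and 7.71, 7.63 and 7.91 with FXRα4. Here FXRα2 and FXRα4 were the highest and overlapped each other, FXRα3 lay between them and GFP, and the FXRα1 arrays also lay above the GFP arrays. Lpin3 rose 2.62-fold with FXRα4 (1.39 ± 0.10, adjusted p = 3.19e-10), 2.29-fold with FXRα2 (1.20 ± 0.10, adjusted p = 2.8e-09) and 1.44-fold with FXRα3 (0.52 ± 0.10, adjusted p = 0.000767), and had 0.26 ± 0.10 with FXRα1 (adjusted p = 0.114). Lpin2 fell with FXRα4 (−0.35 ± 0.058, adjusted p = 3.98e-05), its values being 0.010 ± 0.058, −0.077 ± 0.058 and −0.082 ± 0.058 with FXRα1, FXRα2 and FXRα3.

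DGAT enzymes complete triglyceride, and MOGAT enzymes make diacylglycerol from monoacylglycerol. The Dgat2 level was 10.32, 10.40 and 10.41 with GFP, 10.64, 10.59 and 10.64 with FXRα1, 10.59, 10.59 and 10.54 with FXRα2, 10.54, 10.57 and 10.55 with FXRα3, and 10.31, 10.26 and 10.33 with FXRα4. FXRα1, FXRα2 and FXRα3 lay above all GFP arrays, and FXRα4 overlapped GFP. Dgat2 rose with FXRα1 (0.24 ± 0.040, adjusted p = 0.000124), FXRα2 (0.20 ± 0.040, adjusted p = 0.000341) and FXRα3 (0.18 ± 0.040, adjusted p = 0.00322), and had −0.079 ± 0.040 with FXRα4. After gene median centring these became 0.14, −0.022 and 0.14, with no call. Dgat1 rose with FXRα2 (0.21 ± 0.057, adjusted p = 0.00497) and FXRα4 (0.32 ± 0.057, adjusted p = 8.58e-05), which became −0.010 and 0.11 in the same setting, again with no call. Mogat2 fell with FXRα2 (−0.30 ± 0.12, adjusted p = 0.0493) and FXRα4 (−0.41 ± 0.12, adjusted p = 0.00826). GFP replicate 3 read 6.11 where the other GFP arrays read 5.65 and 5.66, and without it the values were −0.15 and −0.26 with neither called. The FXRα2 call also ended on leaving out any 1 of the FXRα2 arrays, with 16 added to the linear values (−0.23), with every probe set tested and with the groups of the contrast alone. Mogat1 changed with none (from −0.15 ± 0.10 with FXRα2 to 0.019 ± 0.10 with FXRα3). Its mean over all arrays (3.45) lay below the 25th percentile of gene means (3.83) and was not shown to be above background.

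Mboat1, Mboat2 and Lpcat3 encode acyltransferases that return an acyl chain to lysophospholipids, Lpcat3 favouring polyunsaturated chains. Mboat1 had the largest change of the members, with 8.29, 8.23 and 8.19 with GFP, 6.79, 6.87 and 7.03 with FXRα1, 6.43, 6.13 and 6.65 with FXRα2, 7.35, 7.29 and 7.55 with FXRα3, and 6.30, 6.44 and 6.66 with FXRα4. Every isoform array lay below every GFP array, the FXRα3 arrays were the highest of the isoform groups, and FXRα2 and FXRα4 overlapped. Mboat1 was 3.58-fold lower with FXRα2 (−1.84 ± 0.11, adjusted p = 1.88e-11), 3.42-fold lower with FXRα4 (−1.77 ± 0.11, adjusted p = 4.38e-11), 2.54-fold lower with FXRα1 (−1.35 ± 0.11, adjusted p = 2.07e-08) and 1.8-fold lower with FXRα3 (−0.85 ± 0.11, adjusted p = 1.38e-05).

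Mboat2 rose with FXRα2, from 3.82 ± 0.04 with GFP to 4.53 ± 0.26 (log2, SD, n = 3; 0.71 ± 0.11, adjusted p = 2.67e-05), where its arrays read 4.27, 4.54 and 4.79 and all others at most 3.98. The GFP level lies at the 25th percentile of gene means (3.83) and was not shown to be above background, so the difference is no exact size. The Lpcat3 level was 10.94, 10.95 and 10.86 with GFP, 10.67, 10.82 and 10.71 with FXRα1, 11.37, 11.47 and 11.30 with FXRα2, 10.86, 10.89 and 10.80 with FXRα3, and 11.13, 11.33 and 11.15 with FXRα4. FXRα2 and FXRα4 lay above all other arrays and FXRα1 below the GFP arrays. Lpcat3 rose with FXRα2 (0.47 ± 0.054, adjusted p = 3.4e-07) and FXRα4 (0.29 ± 0.054, adjusted p = 0.000169), the latter becoming 0.078 with no call after gene median centring. It fell with FXRα1 (−0.18 ± 0.054, adjusted p = 0.0289), a call that ended without FXRα1 replicate 1 or 3 or GFP replicate 1 or 2 (−0.17 to −0.15) and without the mean-variance trend.

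**Figure D3:**
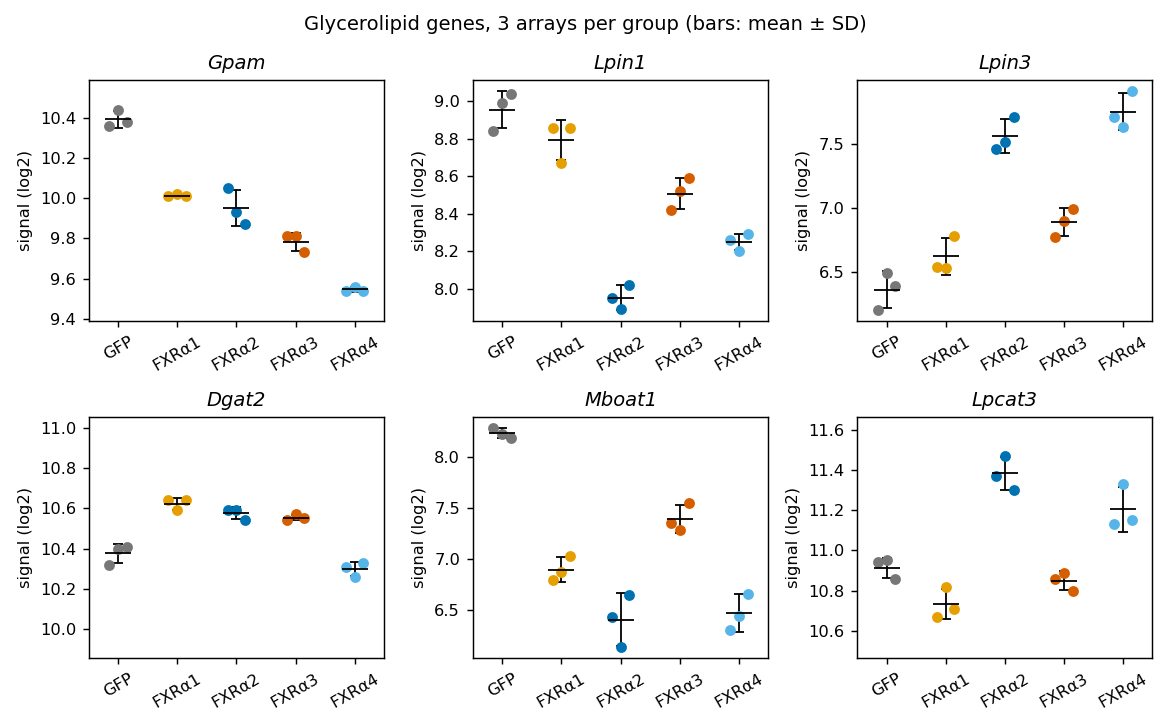
Deposited log2 level of Gpam, Lpin1, Lpin3, Dgat2, Mboat1 and Lpcat3 (panels) on each of the 15 arrays by group (points), with group means (bars). The Gpam and Mboat1 points of GFP lie above those of every isoform, Lpin1 is lowest with FXRα2 (7.89 to 8.02), and Lpin3 is highest with FXRα2 and FXRα4 (7.46 to 7.91).

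Acyl-CoA synthetases activate fatty acids before acylation or oxidation. Acsl5 was 10.21 ± 0.05 (log2, SD, n = 3) with GFP and rose with FXRα1 (0.16 ± 0.047, adjusted p = 0.0303), FXRα2 (0.20 ± 0.047, adjusted p = 0.00184), FXRα3 (0.25 ± 0.047, adjusted p = 0.000567) and FXRα4 (0.20 ± 0.047, adjusted p = 0.00148). The FXRα1 call ended without FXRα1 replicate 2 or 3 or GFP replicate 2 or 3 (0.13 to 0.15), after any of the 3 centrings (0.052 to 0.14) and in 3 settings of the variance or samples. Gene median centring gave −0.022 with FXRα2 and −0.0082 with FXRα4, so the direction in those groups turned under that scaling. The calls of those groups were kept under the other rescalings. Acsl4 and Acsm1 changed with none against GFP, with values from −0.10 ± 0.14 to 0.11 ± 0.047. The Acsm1 mean over all arrays (4.47) lay below the median gene (5.72) and was not shown to be above background.

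Slc27a1 encodes a fatty acid transport protein with acyl-CoA synthetase activity. Its level was 6.41, 6.21 and 6.08 with GFP, 6.80, 6.49 and 6.90 with FXRα1, 7.34, 7.33 and 7.55 with FXRα2, 7.27, 7.21 and 7.37 with FXRα3, and 7.58, 7.61 and 7.65 with FXRα4. Every isoform array lay above every GFP array, and the FXRα4 arrays were the highest. Slc27a1 rose 2.6-fold with FXRα4 (1.38 ± 0.10, adjusted p = 4.85e-10), 2.25-fold with FXRα2 (1.17 ± 0.10, adjusted p = 5.26e-09), 2.07-fold with FXRα3 (1.05 ± 0.10, adjusted p = 1.83e-07) and 1.41-fold with FXRα1 (0.50 ± 0.10, adjusted p = 0.00181). The level of Cd36, the fatty acid translocase, was 4.55, 4.40 and 4.66 with GFP, 3.85, 4.28 and 4.02 with FXRα1, 4.79, 4.51 and 4.70 with FXRα2, 4.20, 4.07 and 4.05 with FXRα3, and 4.25, 4.22 and 4.24 with FXRα4. FXRα1, FXRα3 and FXRα4 lay below the GFP arrays and FXRα2 overlapped them. Cd36 fell with FXRα1 (−0.49 ± 0.11, adjusted p = 0.00451), FXRα3 (−0.43 ± 0.11, adjusted p = 0.0101) and FXRα4 (−0.30 ± 0.11, adjusted p = 0.041), and had 0.13 ± 0.11 with FXRα2. Its mean over all arrays (4.32) lay below the median gene (5.72) and was not shown to be above background. The Cd36 differences may thus not be the full size. The FXRα3 call ended without GFP replicate 3 (−0.37) and the FXRα4 call without FXRα4 replicate 1, 2 or 3 or GFP replicate 1 or 3 (−0.31 to −0.24) and after 75th percentile centring. Slc27a4 fell with FXRα2 (−0.16 ± 0.061, adjusted p = 0.0495), a call that ended without FXRα2 replicate 1 or 2 or GFP replicate 2 or 3 (−0.15 to −0.13), without the trend, with robust variances and with every probe set tested. Its value with FXRα1, 0.18 ± 0.061, was called in 6 alternatives (0.17 to 0.25). Slc27a2, a transport protein, and the fatty acid binding proteins Fabp1 and Fabp2 changed with none, with values from −0.15 ± 0.086 (Slc27a2 with FXRα3) to 0.17 ± 0.13 (Fabp2 with FXRα1). With GFP, Fabp1 (5.49) and Fabp2 (4.81) lay below the median gene (5.72) and were not shown to be above background.

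Comparisons between isoforms use no GFP array. Among the isoforms of shorter N-terminus, without the insert against with it (FXRα2 against FXRα1), 7 rose and 8 fell of 39 (14.1% and 17.1% of all genes). Lpin3 (0.94 ± 0.10), Mboat2 (0.77 ± 0.11), Slc27a1 (0.68 ± 0.10), Lpcat3 (0.65 ± 0.054), Gpd1 (0.62 ± 0.076), Cd36 (0.61 ± 0.11) and Fasn (0.30 ± 0.049) were higher with FXRα2. Lpin1 (−0.84 ± 0.068), Mboat1 (−0.49 ± 0.11), Slc27a4 (−0.34 ± 0.061), Acaca (−0.34 ± 0.093), Gpd2 (−0.24 ± 0.079), Acly (−0.22 ± 0.046), Gpat4 (−0.21 ± 0.057) and Mid1ip1 (−0.16 ± 0.052) were lower. The adjusted p of these changes ran from 2.31e-09 (Lpin1) to 0.024 (Gpd2). The call ended for Acaca without FXRα1 replicate 3 (−0.26), Mid1ip1 without FXRα1 replicate 3 or FXRα2 replicate 2 (−0.15 to −0.11) and Gpd2 without FXRα1 replicate 1 or 3 or FXRα2 replicate 1 or 2 (−0.23 to −0.17). It also ended for Mid1ip1 and Gpd2 without the trend, and for both and Gpat4 with the groups of the contrast alone. The dimmer Acaca probe set was also lower with FXRα2, with −0.42. Acss2 (0.29 ± 0.11, adjusted p = 0.055 by limma) did not pass but was called as higher with FXRα2 in several alternatives (0.29 to 0.435). After gene median centring 7 members rose and 14 fell, with a median change of −0.15 beside −0.16 over all genes.

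Among those of longer N-terminus (FXRα4 against FXRα3), 8 rose and 14 fell (15.8% and 13.8% of all genes). Lpin3 (0.86 ± 0.10) was higher and Lpin1 (−0.26 ± 0.068) and Mboat1 (−0.93 ± 0.11) lower, as in FXRα2 against FXRα1, while Gpd1 (−0.74 ± 0.076) was lower here and higher there. The other rises were those of Agpat4 (0.57 ± 0.10), Lpcat3 (0.35 ± 0.054), Slc27a1 (0.33 ± 0.10), Mid1ip1 (0.25 ± 0.052), Gpd2 (0.23 ± 0.079), Dgat1 (0.18 ± 0.057) and Fasn (0.15 ± 0.049). Of the glycerolipid genes, Mogat2 (−0.42 ± 0.12), Agpat2 (−0.28 ± 0.046), Lpin2 (−0.27 ± 0.058), Dgat2 (−0.25 ± 0.040), Gpam (−0.23 ± 0.048), Agpat5 (−0.22 ± 0.060) and Agpat3 (−0.14 ± 0.041) were lower, as were Me1 (−0.16 ± 0.046), Acly (−0.14 ± 0.046), Slc27a4 (−0.18 ± 0.061) and Acsl4 (−0.14 ± 0.047). The split was 5 and 15 after median centring and 2 and 23 after gene median centring, which turned Fasn to −0.023 and ended the calls of Mid1ip1 (0.080), Dgat1 (0.0039), Slc27a1 (0.16), Gpd2 (0.056) and Lpcat3 (0.18). The members' median change was −0.17 after median centring and −0.30 after gene median centring, beside −0.063 and −0.19 over all genes. Adjusted p ran from 8.62e-08 (Gpd1) to 0.0323 (Slc27a4). The call ended for Fasn without FXRα3 replicate 2 or 3 or FXRα4 replicate 1 (0.11 to 0.15), Slc27a1 without FXRα3 replicate 1 or 2 or FXRα4 replicate 3 (0.30 to 0.32), Dgat1 without FXRα3 replicate 2 or 3 or FXRα4 replicate 1 (0.14 to 0.17) and Gpd2 without FXRα3 replicate 1 or 2 or FXRα4 replicate 1 or 3 (0.18 to 0.22). It ended for Acly without FXRα3 replicate 3 or FXRα4 replicate 2 or 3 (−0.13 to −0.12), Agpat3 without FXRα3 replicate 2 or FXRα4 replicate 3 (−0.13 to −0.12), Acsl4 without FXRα3 replicate 1, 2 or 3 or FXRα4 replicate 1 or 3 (−0.15 to −0.11) and Slc27a4 without FXRα3 replicate 1 or 2 or FXRα4 replicate 1, 2 or 3 (−0.19 to −0.16). Without the trend those of Fasn, Acly, Me1, Agpat3, Acsl4, Slc27a4 and Gpd2 ended, after median centring those of Fasn, Dgat1 and Gpd2, and after quantile normalization that of Acsl4. The main counts, standard errors and p of this comparison come from the fit without a replicate block. With the replicate number as a block, Acss2 (0.29 ± 0.11 without it) also passed as higher and Acaca (−0.15 ± 0.093 without it) as lower.

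The N-terminus was compared within each insert form. Among isoforms with the insert, FXRα3 against FXRα1, 2 rose and 6 fell (2.21% and 4.65% of all genes). Slc27a1 (0.55 ± 0.10) and Mboat1 (0.50 ± 0.11) were higher with FXRα3, and Acacb (−0.55 ± 0.12), Thrsp (−0.55 ± 0.11), Gpd1 (−0.37 ± 0.076), Fasn (−0.30 ± 0.049), Lpin1 (−0.29 ± 0.068) and Gpam (−0.23 ± 0.048) lower. The split was 4 and 5 after 75th percentile or gene median centring and 4 and 7 after quantile normalization. The median change of all genes was 0.050, 0.057 and 0.0025 in these settings, in that order. The call ended for Acacb without FXRα1 replicate 3 or FXRα3 replicate 2 (−0.45 to −0.44), Lpin1 without FXRα1 replicate 1 or 3 or FXRα3 replicate 1 (−0.26 to −0.24) and Mboat1 without FXRα1 replicate 1 or FXRα3 replicate 3 (0.42 to 0.44), and for Gpam after gene median (−0.16) or 75th percentile (−0.17) centring. Adjusted p ran from 0.000383 (Fasn) to 0.0106 (Lpin1). Among isoforms without the insert, FXRα4 against FXRα2, 4 rose and 13 fell (11.7% and 12% of all genes). Gpd1 was 3.33-fold lower with FXRα4 (−1.74 ± 0.076, adjusted p = 1.36e-12), Acacb 1.76-fold lower (−0.81 ± 0.12, adjusted p = 3.66e-05) and Thrsp 1.65-fold lower (−0.72 ± 0.11, adjusted p = 5.14e-05). Fasn (−0.45 ± 0.049), Gpam (−0.40 ± 0.048), Me1 (−0.26 ± 0.046), Mboat2 (−0.71 ± 0.11), Cd36 (−0.43 ± 0.11), Dgat2 (−0.28 ± 0.040), Lpin2 (−0.27 ± 0.058), Agpat2 (−0.25 ± 0.046), Agpat3 (−0.16 ± 0.041) and Lpcat3 (−0.18 ± 0.054) were lower too. Gpd2 (0.33 ± 0.079), Mid1ip1 (0.33 ± 0.052), Lpin1 (0.30 ± 0.068) and Agpat4 (0.29 ± 0.10) were higher. The Lpcat3 call ended without FXRα2 replicate 2 or FXRα4 replicate 1 or 3 (−0.15 to −0.14) and the Agpat4 call without FXRα2 replicate 2 or FXRα4 replicate 2 or 3 (0.23 to 0.28). Those of Agpat3, Agpat4 and Lpcat3 each ended under 1 or more rescalings, and the adjusted p of the 17 calls reached 0.0288 (Agpat4). Fasn, Acacb, Thrsp, Gpam and Gpd1 were lower with the longer N-terminus in both comparisons.

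Whether removing the insert acted differently with each N-terminus was tested as an interaction, the change of FXRα4 against FXRα3 minus that of FXRα2 against FXRα1. It passed for 10 of the 39 members, beside 12.9% of all genes. The largest was Gpd1, which was 0.62 ± 0.076 with FXRα2 against FXRα1 and −0.74 ± 0.076 with FXRα4 against FXRα3, a difference of −1.36 ± 0.11 (adjusted p = 5.16e-08). Mboat2 rose in the former and had 0.0049 ± 0.11 in the latter (interaction −0.76 ± 0.16, adjusted p = 0.00247), and Lpin1 fell in both, by less in the latter (0.58 ± 0.10, adjusted p = 0.000262). Gpd2 (0.47 ± 0.11, adjusted p = 0.0065) and Mid1ip1 (0.41 ± 0.074, adjusted p = 0.000534) fell in the former and rose in the latter. Mid1ip1 was the only lipogenesis gene of the 10. The interaction of Fasn, −0.15 ± 0.070 (adjusted p = 0.176), did not pass, nor did that of Mboat1, −0.43 ± 0.16 (adjusted p = 0.087), which was called in 6 alternatives (−0.57 to −0.43).

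**Figure D4:**
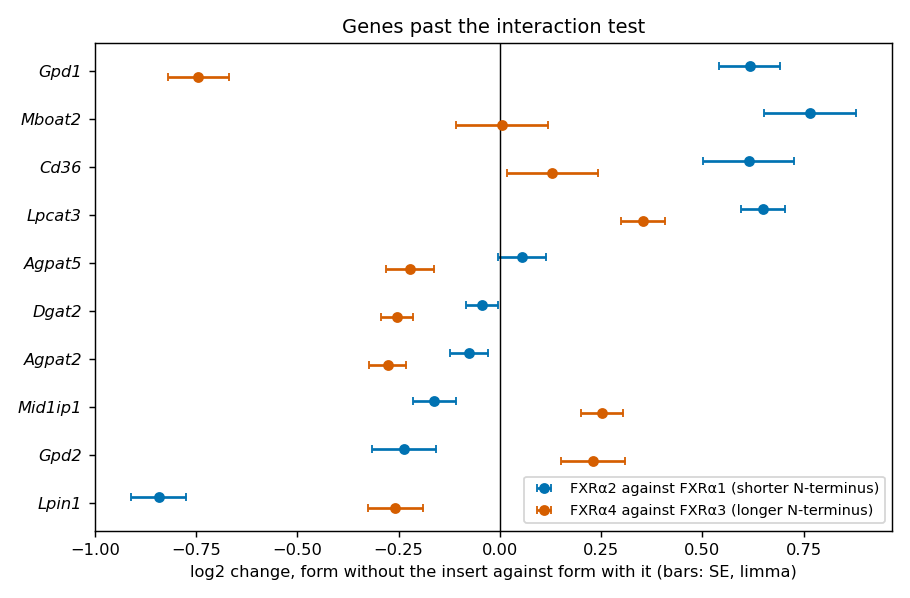
Log2 change of the 10 genes (rows) whose interaction had an adjusted p under 0.05. Colours show FXRα2 against FXRα1 and FXRα4 against FXRα3, with standard errors of the limma fit and a vertical line at 0. Gpd1 lies at 0.62 and −0.74, and Mboat2 at 0.77 and near 0.

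Beyond these genes, 67 of 72 other listed genes of the pathway and its regulators were measured. With FXRα1 17 rose and 4 fell (8.42% and 4% of all genes), and with FXRα2 25 rose and 17 fell (17.5% and 16.7%). The counts were 14 up and 14 down for FXRα3 (7.45% and 6.62%), and 19 up and 18 down for FXRα4 (18% and 15.7%). Pcyt2, which makes CDP-ethanolamine for phosphatidylethanolamine, rose with all 4 isoforms (0.83 ± 0.063, 1.14 ± 0.063, 0.30 ± 0.063 and 0.42 ± 0.063 in order of number), while Etnk1, the ethanolamine kinase before it, fell with FXRα2 (−0.41 ± 0.074), FXRα3 (−0.30 ± 0.074) and FXRα4 (−1.24 ± 0.074) and had 0.092 ± 0.074 with FXRα1. Selenoi, the ethanolamine phosphotransferase after it, fell with all 4 (−0.20 ± 0.051, −0.45 ± 0.051, −0.40 ± 0.051 and −0.66 ± 0.051). Cds1, which draws phosphatidate into CDP-diacylglycerol, rose with FXRα2 (1.16 ± 0.16) and FXRα4 (1.64 ± 0.16), from 3.73 ± 0.05 (log2, SD, n = 3) with GFP, a level below the 25th percentile of gene means (3.83) and not shown to be above background, so these differences may not be the full size. The citrate carrier Slc13a5 rose with FXRα2 (1.72 ± 0.13) and FXRα4 (0.60 ± 0.13), and the mitochondrial dicarboxylate carrier Slc25a10 with FXRα1 (0.35 ± 0.079), FXRα2 (1.22 ± 0.079), FXRα3 (0.28 ± 0.079) and FXRα4 (0.22 ± 0.079). Adjusted p over these calls ran from 2.74e-12 (Pcyt2 with FXRα2) to 0.0376 (Slc25a10 with FXRα4). The Slc13a5 level with GFP (4.85) lay below the median gene (5.72) and was not shown to be above background, so its differences may not be the full size. Its value with FXRα1 (0.40) did not pass but was called in several alternatives (0.39 to 0.50). The call ended for Selenoi with FXRα1 without FXRα1 replicate 1 (−0.15), for Etnk1 with FXRα3 without GFP replicate 2 (−0.26), and for Slc25a10 with FXRα3 without FXRα3 replicate 3 or GFP replicate 1 or 2 (0.21 to 0.27). That of Slc25a10 with FXRα4 ended without FXRα4 replicate 1 or 3 or GFP replicate 1 or 2 (0.19 to 0.21) and after median (0.17) or gene median (0.0035) centring, and without the trend.

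Among the regulators, Pparg fell with FXRα2 (−0.72 ± 0.065, adjusted p = 7.75e-09), FXRα3 (−0.38 ± 0.065, adjusted p = 0.0002) and FXRα4 (−0.34 ± 0.065, adjusted p = 0.000229), and Prkaa2, a catalytic subunit of AMP-activated kinase, with FXRα2 (−0.68 ± 0.055, adjusted p = 1.19e-09) and FXRα4 (−0.59 ± 0.055, adjusted p = 1.19e-08). Srebf2, the sterol-regulated relative of Srebf1, rose with FXRα2 (0.36 ± 0.054, adjusted p = 1.08e-05) and FXRα4 (0.36 ± 0.054, adjusted p = 1.29e-05). Mlxipl (ChREBP) rose with FXRα1 (0.23 ± 0.063, adjusted p = 0.0144) and fell with FXRα3 (−0.24 ± 0.063, adjusted p = 0.0102), and Nr1h3 (LXRα) fell with FXRα3 (−0.21 ± 0.067, adjusted p = 0.0387). Nr0b2 (SHP) rose with FXRα2 (0.40 ± 0.13, adjusted p = 0.0154) and fell with FXRα3 (−0.46 ± 0.13, adjusted p = 0.0141) and FXRα4 (−0.39 ± 0.13, adjusted p = 0.0198), with −0.017 ± 0.13 with FXRα1. Its mean level was 4.65 with GFP and 4.64, 5.05, 4.19 and 4.27 with FXRα1 to FXRα4. These lie below the median gene (5.72) and were not shown to be above background, so the differences may not be the full size. The mouse Nr1h4 probe set rose with FXRα4 (0.41 ± 0.074, adjusted p = 0.000117) and does not check the human transgene.

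Some regulator calls ended when 1 array was left out. That of Mlxipl with FXRα1 ended without FXRα1 replicate 1 or GFP replicate 1 (0.18 to 0.20) and after gene median centring (0.13), and with FXRα3 without GFP replicate 3 (−0.20). That of Nr1h3 with FXRα3 ended without FXRα3 replicate 1 or 2 or GFP replicate 2 or 3 (−0.21 to −0.15) and without the trend. Those of Nr0b2 ended without FXRα2 replicate 2 or GFP replicate 2 or 3 with FXRα2 (0.26 to 0.38) and after gene median centring (0.18), without FXRα3 replicate 3 or GFP replicate 1 with FXRα3 (−0.43 to −0.41), and without FXRα4 replicate 2 or 3 or GFP replicate 1 with FXRα4 (−0.35 to −0.33).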

How the data were processed

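RNA of mouse primary hepatocytes was read on 15 Affymetrix arrays, 3 per adenovirus group at 36 h. The authors deposited log2 values per probe set, of which the base was inferred from their range (1.93 to 13.8). The submitters' processing notes name Affymetrix Expression Console 1.1 and PLIER without a role, and how background was corrected or arrays normalized is not given in the sources used here.

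Of 35556 probe sets, 21218 had 1 gene symbol, 1881 several and 12457 none (21185 Entrez IDs matched, 0 symbols updated); for 1386 genes the brightest of several was kept. Acaca and Me1 had more than 1. limma 3.58.1 (R 4.3.3) fitted 5 group means to all arrays with a mean-variance trend, for 9 contrasts, two-sided, with Benjamini-Hochberg adjustment over 18820 genes and no filter. Members and lists were chosen with earlier results of these data known. Named genes were all members, the other pathway genes with the smallest adjusted p against GFP, and fixed regulators. Alternatives were other variance models, samples, filters, scalings and normalization, 16 added to linear values, every probe set, a 1.5-fold minimum, the replicate block and each array left out. Every same-numbered pair exceeded 0.1 between FXRα3 and FXRα4 (correlations of deviations 0.15 to 0.36), FXRα2 and FXRα4 (0.13 to 0.43) and FXRα2 and FXRα3 (0.18 to 0.42). FXRα2 and FXRα3 were not compared directly. The replicate numbers may thus pair arrays in FXRα4 against FXRα3 and in FXRα4 against FXRα2, which was not settled. FXRα4 replicate 1 correlated more with FXRα2 replicate 2 (0.17) than with FXRα2 replicate 1 (0.13). The main counts, standard errors and p of all contrasts come from the fit without the block. The block was an alternative for every contrast, also for those with FXRα1 or GFP. In FXRα4 against FXRα2 it changed no call. The script was tested on simulated data.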

Additional observations from a re-analysis of the deposited data

Results flagged for a closer look

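For 10 members, loss of the insert had a different log2 effect with the longer N-terminus (FXRα4 against FXRα3) than with the shorter (FXRα2 against FXRα1), by the interaction term of the limma fit at an adjusted p under 0.05. The difference was negative for Gpd1 (−1.36), Mboat2 (−0.76), Cd36 (−0.48), Lpcat3 (−0.30), Agpat5 (−0.28), Dgat2 (−0.21) and Agpat2 (−0.20), and positive for Lpin1 (0.58), Gpd2 (0.47) and Mid1ip1 (0.41). Those of Mid1ip1, Lpin1, Gpd1, Gpd2 and Mboat2 were called under every alternative except the fold minimum. That of Agpat2 ended on leaving out any 1 of 8 arrays (−0.21 to −0.16), that of Agpat5 on leaving out any 1 of 6 (−0.27 to −0.24) and that of Cd36 on leaving out any 1 of 10 (−0.51 to −0.38). Those of Agpat2 and Cd36 also ended after quantile normalization, median centring or gene median centring, with every probe set tested and with the groups of the contrast alone, that of Agpat5 with those groups alone, and those of Agpat2, Dgat2 and Lpcat3 without the mean-variance trend.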

How the results depend on the processing

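The count of changed members stayed within 1.5 times its main value under all alternatives but those named here. A fold minimum of 1.5 left 1, 6, 3 and 6 members with FXRα1 to FXRα4 against GFP, 7 with FXRα2 against FXRα1, 3 with FXRα4 against FXRα3, 0 with FXRα3 against FXRα1 (8 at an adjusted p under 0.05 by limma without it), 4 with FXRα4 against FXRα2 and 2 for the interaction. Of all 18820 genes it left 337 up and 98 down, 1243 and 476, 273 and 163, and 1197 and 602 with FXRα1 to FXRα4 against GFP. The isoform pairs in the same order had 891 and 465, 923 and 424, 35 and 113, and 348 and 481, and the interaction 412 and 331. Leaving out 1 array gave 7 to 14 with FXRα1 (7 without GFP replicate 2), 15 to 19 with FXRα2, 12 to 14 with FXRα3, 19 to 22 with FXRα4, 13 to 15, 15 to 21, 6 to 11 and 15 to 17 for the isoform pairs in that order, and 7 to 11 for the interaction. Gene median centring turned the sign against GFP of Agpat2 (−0.095), Agpat3 (−0.17), Agpat5 (−0.048), Dgat1 (−0.0099), Dgat2 (−0.022), Acsl4 (−0.20), Acsl5 (−0.022) and Nr1h3 (−0.14) with FXRα2 and of Agpat5 (−0.16) and Acsl5 (−0.0082) with FXRα4, and that of Fasn with FXRα4 against FXRα3 (−0.023). Only values called before or after that centring are listed, and values called in neither also turned. The deposited values do not say which scaling is right. Shared replicate numbers met the rule for pairs among FXRα2, FXRα3 and FXRα4, and in no pair of groups with FXRα1 or GFP. Over all groups, 18 of 30 same-numbered pairs of arrays correlated above 0.1 in their deviations (−0.21 to 0.43, beside −0.42 to 0.32 for other pairs). Of the 15 arrays, 11 correlated best with their own number. With a replicate block, 17, 19, 15 and 26 members changed with FXRα1 to FXRα4, 16, 24, 10 and 17 in the isoform pairs and 11 in the interaction. The block ended no call. It added the rises of Acaca, Mid1ip1, Lpin3, Slc27a4 and Gpd2 with FXRα1 and of Acss2 with FXRα2 against FXRα1, the falls of Gpat4 with FXRα3 and of Srebf1 and Mlycd with FXRα4, Acaca as lower and Lpin3 as higher with FXRα3 against FXRα1, and the interaction of Mboat1. The deposited values were read without a measure of background, so no level was shown to be above it, and the number of arrays limits the precision.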
